A study of Danio rerio with 48 samples.

Results

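A set of 42 zebrafish genes, out of 32520 gene IDs counted, had a higher mean level at 3.25 hours post fertilisation (hpf) than at 2.25 hpf by the thresholds given next. Most had little transcript at 2.25 hpf, but 12 of the 42 already averaged at least 1 CPM there. Levels are in counts per 1000000 (CPM) of an embryo's total without the ID ENSDARG00000080337, and the members were chosen by their measured mean in the 12 embryos of each stage. The level at 3.25 hpf had to reach 2 CPM and at least 2.5 times that at 2.25 hpf after 0.5 CPM was added to both, and the level at 5.25 hpf had to stay above 0.6 of the higher of the 3.25 and 4.25 hpf levels. The rule also left out 11 IDs by name, which are not described here. Of the 42 genes, 37 had a symbol in the gene name table and 5 are printed by ID. Several symbols are clone names, and of these genes only ENSDARG00000102371 is printed by ID in place of its symbol. The symbols GADD45B, ACKR3, GADD45G and BMP2 were each carried by more than one ID, so close copies could have shared reads and these 4 are uncertain.

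The counts came from single whole embryos of the laboratory strains TL and AB, obtained by natural spawning, kept at 28.5 °C and lysed in Trizol at hourly stages between 2.25 and 5.25 hpf, including 3.25 and 4.25 hpf. Each embryo was profiled by CEL-seq2, which tags the 3′ ends of polyadenylated RNA with a barcode per sample and amplifies the pool linearly. Each strain and stage had 6 embryos, with embryos 4 to 6 forming biological replicate 2 and embryos 1 to 3 biological replicate 1. No mutation, transgene or drug is given for either strain, and both replicates and all stages share these conditions. Stages were separate library pools and each biological replicate had its own sequencing runs, so stage and pool, and replicate and run, cannot be told apart. An embryo number names a different embryo at each stage.

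The fertilised zebrafish egg develops at first on RNA and protein laid down by the mother. Transcription of its own genome begins around the mid-blastula transition, when maternal factors of the Pou5f3, Nanog and SoxB1 types open and activate the earliest genes while maternal RNA is cleared. Many of the earliest genes encode transcription factors and the secreted signals that pattern the dorsal-ventral and mesendodermal axes before gastrulation.

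Total counts per embryo ran from 4931012 to 20036495 (median 9853532), and ENSDARG00000080337 alone took 12.1% to 59.2% of them at 3.25 hpf. All 6 listed germ plasm markers and all 8 listed oocyte markers averaged at least 1 CPM at every stage, while of the 10 listed enveloping layer markers 1 did so at 2.25 hpf and 9 at 5.25 hpf. No member was on a marker list. In whole embryos, fewer cells of a type and less RNA per cell cannot be told apart.

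At 3.25 hpf most members were still far below their later levels. The median mean level over the members was 0.459, 4.25, 74.9 and 161 CPM at the 4 stages in order. The median ratio between neighbouring stages, with 0.5 CPM added, was 5.45 for the step to 3.25 hpf, 12.6 for the step to 4.25 hpf and 2.07 for the step to 5.25 hpf. For the step from 3.25 to 4.25 hpf, which the ratio of the rule did not use, 34 of 42 had a ratio of at least 5 and 24 a ratio of at least 10. The added 0.5 CPM exceeded the median level of 0.459 CPM at 2.25 hpf and so lowered mainly the first ratio. Without it the first step could be the steeper one: ACKR3 averaged 0.00812, 3.18 and 79.4 CPM at 2.25, 3.25 and 4.25 hpf. These ratios therefore do not decide which step was steeper. The level at 3.25 hpf was in the median 4.54% of the highest later mean, below 5% for 24 members, and for asb11, an ankyrin repeat and SOCS box gene, 0.40%. The mean was highest at 5.25 hpf for 35 members, at 4.25 hpf for 5 (si:dkeyp-33c10.5, ENSDARG00000102371, zgc:195170, GADD45G and her2) and at 3.25 hpf for 2 (agt and si:ch211-250c4.4). For si:dkeyp-33c10.5 the means at 4.25 and 5.25 hpf were nearly equal, 33.3 and 32.9 CPM. The highest means of her2, agt and si:ch211-250c4.4 rested on few embryos. These values describe what the rule selected and carry no test.

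**Figure D1:**
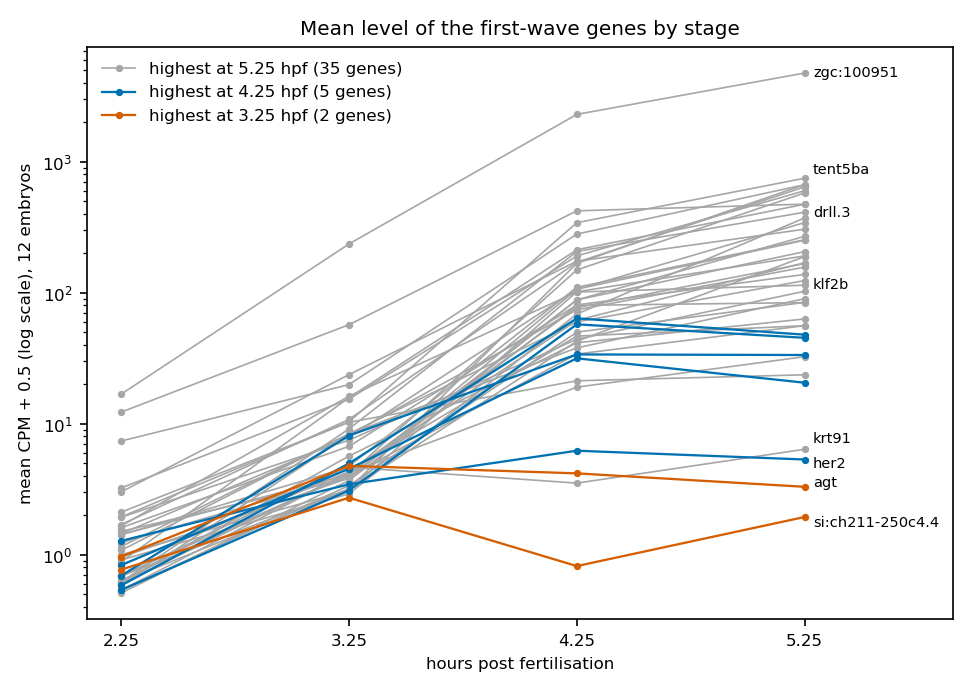
Mean level of each of the 42 genes over the 12 embryos of a stage, as CPM plus 0.5 on a log axis, against hours post fertilisation, with 1 line per gene coloured by the stage of its highest mean. Most of the 35 genes highest at 5.25 hpf climb steeply after 3.25 hpf. The lines of agt and si:ch211-250c4.4 peak at 3.25 hpf, where their means rest on few embryos.

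Among the transcription regulators, drll.3 (ENSDARG00000095635), a draculin-like zinc finger gene, had the highest ratio of all members, 17.9. Its mean was 0.381, 15.3, 212 and 473 CPM at the 4 stages in order. At 3.25 hpf the lowest, median and highest embryo had 1.17, 12.3 and 44.4 CPM in TL, against 1.46, 9.82 and 41.1 CPM in AB, so the strains overlapped throughout. The zinc finger gene blf (ENSDARG00000043126) was present earlier, at 2.72 CPM at 2.25 hpf, and averaged 14.9, 190 and 600 CPM afterwards. The Krüppel-like factor klf2b (ENSDARG00000040432) averaged 1.15, 15.7, 101 and 113 CPM, so that nearly all of its rise was over by 4.25 hpf.

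The SoxB1 genes SOX3 (ENSDARG00000053569) and sox19a (ENSDARG00000010770), which encode HMG-box factors of early ectoderm, differed in their start. SOX3 had counts in all 12 embryos of 2.25 hpf and averaged 2.51, 23.2, 173 and 305 CPM. By contrast sox19a had 14 counts in all, in 5 embryos, at 2.25 hpf, and averaged 0.178, 4.23, 109 and 253 CPM. The notochord homeobox gene noto was found in 4 embryos at 2.25 hpf and averaged 0.118, 2.63, 42.1 and 188 CPM. For her2, a Hes-type basic helix-loop-helix repressor, the mean stayed between 0.771 and 5.71 CPM over the 4 stages and was carried by few embryos, as described further on.

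The secreted signals in the set were lft2, admp, BMP2, apela and wnt11f2. The Nodal antagonist lft2 (ENSDARG00000044059) had the highest ratio of these 5, 9.16, with 0.117, 5.15, 40.9 and 62.5 CPM on average. The mean of admp, a BMP-like ligand of the dorsal side, was 0.331, 3.79, 46.1 and 55.4 CPM, and that of BMP2, a bone morphogenetic protein, was 1.1, 6.21, 80.1 and 137 CPM. For wnt11f2, the noncanonical Wnt ligand of the silberblick mutant, the mean was 43.6 CPM at 4.25 hpf and 102 CPM at 5.25 hpf. Both apela, which encodes the Toddler peptide, and aplnrb, its apelin receptor, were members. The ligand averaged 0.455, 3.34, 87.5 and 205 CPM and the receptor 0.0323, 2.87, 49.4 and 83.7 CPM.

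The other receptors were ACKR3, a scavenger receptor for chemokines, and fgfr4, a receptor for fibroblast growth factors. ACKR3 had a single count in the 12 embryos of 2.25 hpf, the fewest of any member, and averaged 3.18, 79.4 and 83.4 CPM at the later stages, while fgfr4 averaged 0.496, 2.61, 101 and 190 CPM.

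Genes acting inside the cell or in its metabolism made up most of the remaining named members. The Pak inhibitor family gene inka1a (ENSDARG00000070360) averaged 0.116, 8.61, 206 and 411 CPM (ratio 14.8). The immediate early gene IER5 reached 343 CPM, the terminal nucleotidyltransferase gene tent5ba (ENSDARG00000039943) 667 CPM and the protein kinase A scaffold gene akap12b 577 CPM at 5.25 hpf. The mitochondrial carrier family gene slc25a55a averaged 1.44, 9.82, 342 and 748 CPM, a ratio of 33.2 for the step to 4.25 hpf, and the ratio for the same step was 52.8 for asb11. The apolipoprotein E gene apoeb (ENSDARG00000040295), known from the yolk syncytial layer, averaged 1.19, 10.3, 170 and 642 CPM. Of the growth arrest and DNA damage genes, GADD45B averaged 37.4 CPM at 4.25 hpf and 89.5 CPM at 5.25 hpf. GADD45G averaged 31.0 CPM at 4.25 hpf and 20.02 CPM at 5.25 hpf, but this fall was seen in replicate 2 alone. Its levels were 28.4 to 59.8 CPM at 4.25 hpf and 9.95 to 37.7 CPM at 5.25 hpf in replicate 2. In replicate 1 they were 14.8 to 26.3 CPM and 6.44 to 31.1 CPM at these stages. No test was made of any of these stage changes.

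Members without a known role included some with many counts. Of these, zgc:100951 (ENSDARG00000111442) averaged 16.3, 235, 2296 and 4755 CPM and ENSDARG00000109703 averaged 11.7, 56.4, 421 and 474 CPM, and both had counts in all 12 embryos of 2.25 hpf. ENSDARG00000114187 averaged 0.0790, 7.65, 73.4 and 156 CPM (ratio 14.1), from 6 counts in all at 2.25 hpf. Over the whole set, 8 members had at most 10 counts in total at 2.25 hpf, and 12 had a mean of at least 1 CPM there.

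The threshold on the ratio cut through a continuous range. Just inside it lay NET1, a guanine nucleotide exchange factor gene, with a ratio of 2.54, tent5ba with 2.7 and her2 with 2.71, and just outside lay zgc:163077 with 2.44, ltb4r2b with 2.42 and drll.1 with 2.40. The draculin-like gene drll.1 averaged 4.02 CPM at 2.25 hpf and 10.3 CPM at 3.25 hpf, so it had more transcript than drll.3 at the first stage and less at the second. Another 4 IDs, named after their values were seen, met the ratio and the level but not the level kept to 5.25 hpf. They were VSX1, COL10A1, ENSDARG00000116211 and dre-mir-430b-6 (ENSDARG00000109380), a copy of the miRNA family that clears maternal RNA. The counts at dre-mir-430b-6 averaged 0.0864, 6.5, 2.73 and 1.21 CPM, a ratio of 11.9 followed by a decline, unlike the 35 members that were highest at 5.25 hpf.

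The 12 embryos of 3.25 hpf differed widely in how far the set had risen. Summed over the members without zgc:100951, whose counts would otherwise dominate, TL embryos of replicate 2 had 124, 63.0 and 129 CPM (embryos 4 to 6) and TL embryos of replicate 1 had 303, 674 and 240 CPM (embryos 1 to 3). In AB the same sum was 388, 195 and 174 CPM in replicate 2, against 553, 668 and 296 CPM in replicate 1. The highest embryo thus had over 10 times the sum of the lowest, while at 5.25 hpf all 12 sums lay between 7752 and 11094 CPM. TL embryo 2 was the highest embryo for 16 members, AB embryo 2 for another 16, AB embryo 4 for 6 and AB embryo 1 for 4. For 31 members the lowest level was in a TL embryo of replicate 2.

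Between the 3 embryos of a strain and replicate at 3.25 hpf, the coefficient of variation of a member was in the median 60.8% in TL replicate 2, 70.5% in TL replicate 1, 73.8% in AB replicate 2 and 64.2% in AB replicate 1. For the 10496 genes whose mean lay in the members' range, these medians were 22.2%, 19.1%, 24.2% and 22.7% in the same order. Over all 12 embryos, the median was 99.1% for the members and 30.4% for those genes. The members' means ran from 2.22 to 235 CPM with a median of 4.25 CPM, so the genes in that range were not matched to them in level. The coefficient of variation depends on level, and the part of level in this gap was not tested. The members were selected on the means of these embryos and the comparison carries no test.

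**Figure D2:**
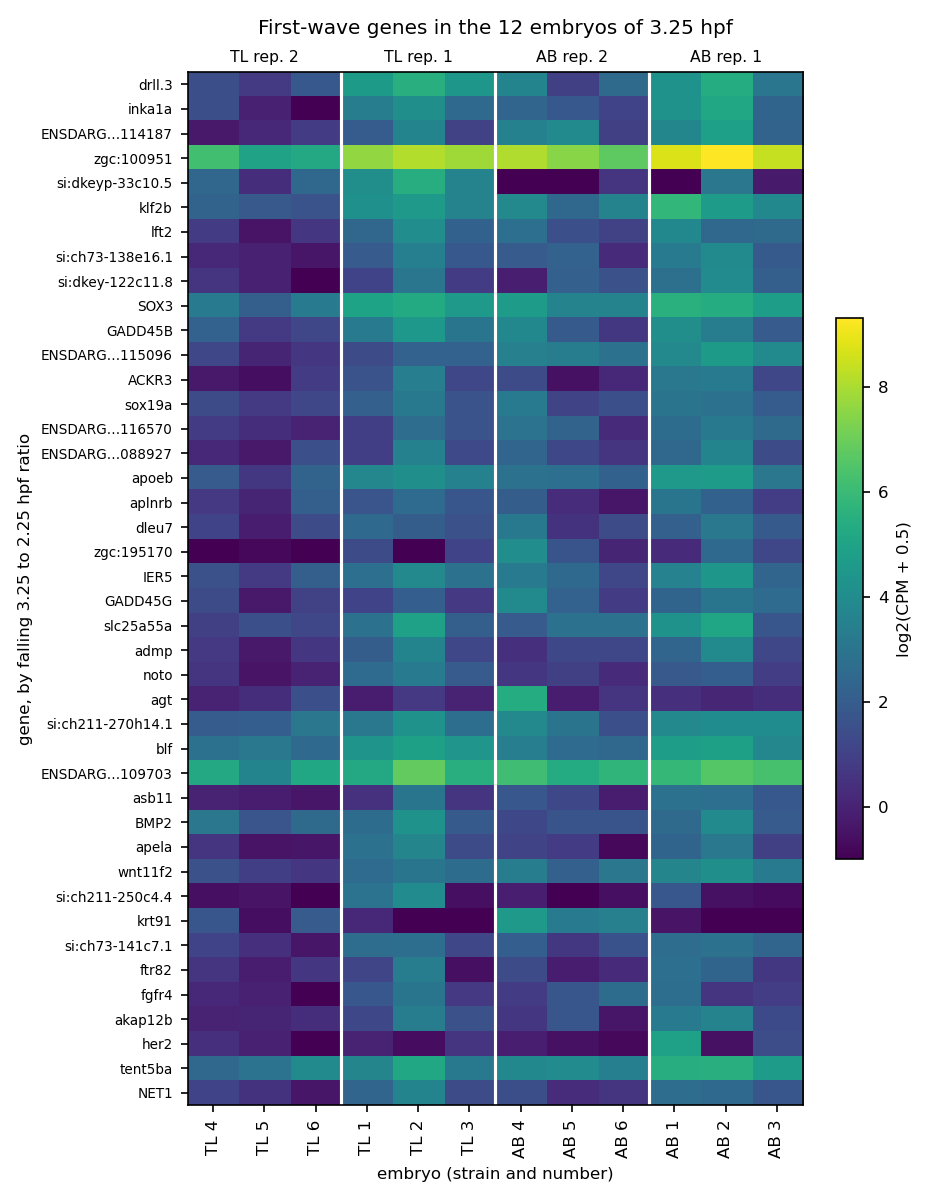
Level of the 42 genes (rows, by falling ratio) in the 12 embryos of 3.25 hpf (columns), as log2(CPM + 0.5) by colour. The columns of TL embryos 4 to 6 are the darkest, and so the lowest, over most rows, those of TL embryo 2 and AB embryos 1 and 2 are the brightest, and agt, her2 and si:ch211-250c4.4 stand out in 1 or 2 embryos.

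The same spread decided membership for some genes. The ratio reached 2.5 for 13 members in TL replicate 2 (median 2.08), 39 in TL replicate 1 (median 6.89), 33 in AB replicate 2 (median 4.52) and 39 in AB replicate 1 (median 7.94). For 11 members it did so in all 4 of these subsets, for 21 in 3, for 7 in 2 and for 3 in 1 (agt, krt91 and her2). Without its highest embryo of 3.25 hpf, the ratio of agt, si:ch211-250c4.4, krt91, ftr82, akap12b, her2, tent5ba and NET1 fell below 2.5. The angiotensinogen gene agt had 42.0 CPM in AB embryo 4, which was 82.1% of its summed level, and at most 2.34 CPM in the other embryos. Likewise her2 had 29.3 CPM in AB embryo 1, 83.0% of its sum. The ID si:ch211-250c4.4 had 7.04 and 15.2 CPM in TL embryos 1 and 2 and at most 2.95 CPM elsewhere. The keratin gene krt91 had 22.7, 9.15 and 10.7 CPM in AB embryos 4 to 6, against 0.236, 0 and 0 CPM in AB embryos 1 to 3, so it was the reverse of most members.

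To see how far biological replicates differed, replicate 2 was set against replicate 1 at each stage with strain in the model (edgeR quasi-likelihood test, 6 embryos each, p adjusted over all genes tested by Benjamini-Hochberg). The labels do not say whether embryos of one replicate shared a clutch, so the p-values measure the spread between these embryos. At 3.25 hpf, the 37 members that passed the count filter were all lower in replicate 2, with a median log2 fold change of -1.68, against a median of 0.00 over the 11980 genes tested. Of these 37, 7 were called lower in replicate 2 and none higher, at a background of 1.07% of all genes called. An unadjusted p under 0.05 was found for 31 of the 37 and for 1954 of the 11980 genes tested. The filter left out agt, ftr82, her2, krt91 and si:ch211-250c4.4. With no count filter 40 of the 42 were lower in replicate 2, and 28 were called lower and 2 higher. The share of all genes called in that fit is not given. The embryos compared at 3.25 hpf are those that chose the members, so a gene could enter the set through its level in replicate 1. The rule gave 64 genes without replicate 2 (36 of them members) and 32 without replicate 1 (21 members). The shared direction and the calls at 3.25 hpf are therefore not independent of the choice of members, and its part in them was not tested.

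The 7 called genes were drll.3, inka1a, blf, klf2b, SOX3, apoeb and zgc:100951. Of these 7, inka1a and drll.3 fell the most. inka1a had a lowest, median and highest level of 0, 1.93 and 4.62 CPM in replicate 2, against 4.57, 13.5 and 35.7 CPM in replicate 1, so the groups overlapped by a single pair of embryos (log2 fold change -2.99, SE 0.61, edgeR adjusted p 0.0323). drll.3 had 1.17, 2.69 and 12 CPM in replicate 2, against 7.68, 22.7 and 44.4 CPM in replicate 1 (log2 fold change -2.72, SE 0.56, edgeR adjusted p 0.0350). Both were lower in replicate 2 within each strain, which was a condition for naming them. The call held under 4 of 7 alternative settings for inka1a and 5 of 7 for drll.3.

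The smallest adjusted p was that of blf, whose groups did not overlap: 5.10, 6.14 and 10.1 CPM in replicate 2, against 13.4, 23.2 and 29.0 CPM in replicate 1 (log2 fold change -1.68, SE 0.26, edgeR adjusted p 0.0162). apoeb did not overlap either, with 1.09 to 6.72 CPM in replicate 2 and 8.13 to 24.6 CPM in replicate 1. In the ranges of SOX3 there was a small overlap, 3.83 to 25.4 CPM in replicate 2 and 23.5 to 45.7 CPM in replicate 1. Without TL embryo 2 and AB embryo 2, 2 of the 38 members tested were called. The share of all genes called in that fit is not given, so the drop from 7 is not a result about the members. In TL alone, with 3 embryos in each replicate, edgeR called 5, at a background of 1.08%. In AB alone it called 0 of 38 and 0 of all genes tested. There 34 of the 38 were lower in replicate 2 and 18 had an unadjusted p under 0.05, but the count of all genes at that p is not given. DESeq2 called 23 on all 12 embryos, at a background of 4.97%.

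Other measures differed between the replicates at 3.25 hpf to a varying extent. The summed level of the 6 listed yolk syncytial layer markers was 5.55 to 18.3 CPM in replicate 2 and 19.98 to 51.6 CPM in replicate 1, with SLC26A1 at 0 in all embryos and 2 of the 6 averaging at least 1 CPM. The sum of the 10 enveloping layer markers was 8.36 to 74.1 CPM in replicate 2 and 40.1 to 104 CPM in replicate 1, with 7 of the 10 averaging at least 1 CPM and none at 0. The 8 oocyte markers summed to 6855 to 9149 CPM in replicate 2 and 5967 to 8370 CPM in replicate 1, and the 13 mitochondrial transcripts to 29488 to 48218 CPM in replicate 2 and 21544 to 41627 CPM in replicate 1. Total counts were 5100691 to 16651602 in replicate 2 and 8107793 to 20036495 in replicate 1. The totals without ENSDARG00000080337, to which CPM was scaled, had close means, 7373500 in replicate 2 and 7283380 in replicate 1. Their medians were 5832900 in replicate 2 and 7477260 in replicate 1. They ran from 3841184 to 12797100 in replicate 2 and from 5158492 to 8979927 in replicate 1. The part of these measures in the result was not tested.

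At 4.25 and 5.25 hpf members were called in each direction. At 2.25 hpf only 7 members passed the filter and edgeR called 0, at a background of 8.08%, and DESeq2 called 0. With edgeR, 1 of the 7 and 3010 of the 11950 genes tested had an unadjusted p under 0.05. At 4.25 hpf 38 were tested and 16 called, 15 lower and 1 higher in replicate 2, at a background of 6.59%, and the median log2 fold change of the 38 was -0.56, against 0.01 over all genes tested. At 5.25 hpf 39 were tested and 9 called, 7 lower and 2 higher, at a background of 13.4%, with a median of -0.27 against 0.00. Over the stages, 21 members were called in at least 1 of these comparisons, 18 always lower and 3 always higher in replicate 2, and 9 at more than 1 stage. The share of all genes called in at least 1 of them is not given, so this pooled count is not a result about the members. It also includes the calls at 3.25 hpf, which are not independent of the choice of members.

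**Figure D3:**
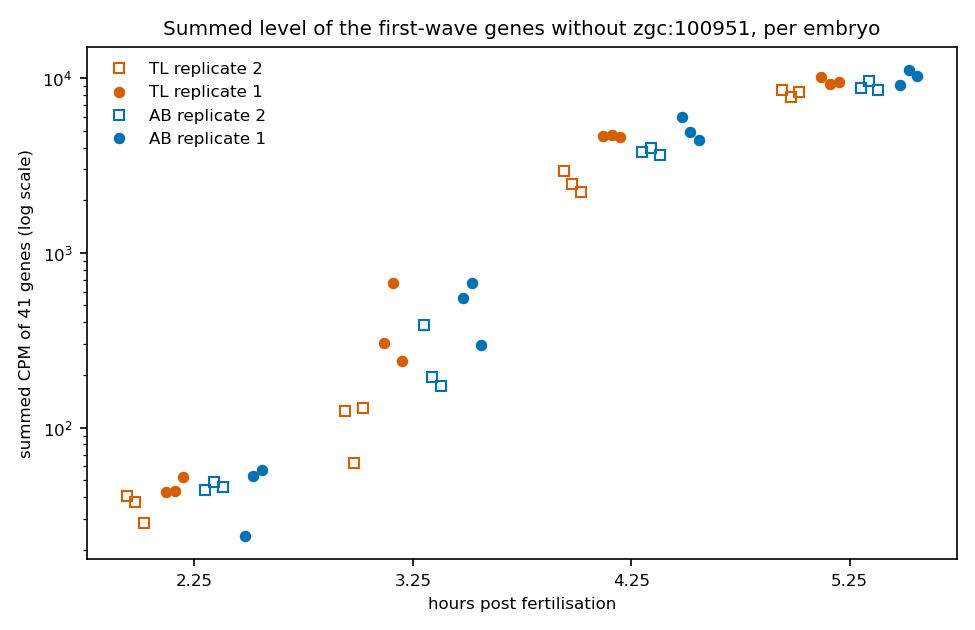
Summed CPM of 41 genes, the set without zgc:100951, in each embryo on a log axis, by hours post fertilisation, with TL replicate 2, TL replicate 1, AB replicate 2 and AB replicate 1 from left to right. At 3.25 hpf TL replicate 2 lies lowest, at 63.0 to 129 CPM, and by 5.25 hpf all embryos lie between 7752 and 11094 CPM.

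Of the members called at 4.25 hpf, asb11 and slc25a55a fell the most. asb11 had a lowest, median and highest level of 53.1, 78.4 and 155 CPM in replicate 2, against 147, 263 and 318 CPM in replicate 1 (log2 fold change -1.45, SE 0.26, edgeR adjusted p 0.00482). slc25a55a had 126, 184 and 274 CPM in replicate 2, against 379, 491 and 572 CPM in replicate 1, with no overlap (log2 fold change -1.32, SE 0.17, edgeR adjusted p 0.00129). Going the other way, GADD45G had 28.4, 43.4 and 59.8 CPM in replicate 2, against 14.8, 16.7 and 26.3 CPM in replicate 1 (log2 fold change 1.31, SE 0.18, edgeR adjusted p 0.00164).

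The transcription regulators drll.3, blf and noto fell with them, noto to 22.3 to 35.5 CPM in replicate 2, against 37.2 to 89.1 CPM in replicate 1 (edgeR adjusted p 0.00620). The other called falls at 4.25 hpf were those of the signals BMP2 and wnt11f2 and of ftr82, NET1, inka1a, akap12b, zgc:100951, apoeb, ENSDARG00000088927 and ENSDARG00000109703. At this stage too, replicate 2 had the lower sum of enveloping layer markers, 303 to 638 CPM against 610 to 970 CPM in replicate 1, and the higher sum of oocyte markers, 6435 to 8268 CPM against 4967 to 6587 CPM in replicate 1. Their part was not tested.

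At 5.25 hpf ftr82, a finTRIM family gene, had a lowest, median and highest level of 186, 242 and 304 CPM in replicate 2, against 344, 492 and 666 CPM in replicate 1 (log2 fold change -1.10, SE 0.19, edgeR adjusted p 0.00169). apoeb had 377, 432 and 661 CPM in replicate 2, against 623, 791 and 1020 CPM in replicate 1 (log2 fold change -0.86, SE 0.16, edgeR adjusted p 0.00272). The receptors aplnrb and ACKR3 were higher in replicate 2 there, by log2 fold changes of 0.78 (SE 0.25, edgeR adjusted p 0.0479) and 0.54 (SE 0.17, edgeR adjusted p 0.0453). At 3.25 hpf the same receptors had gone the other way without being called. The called falls at 5.25 hpf also included SOX3, blf, asb11, akap12b and GADD45B. At this stage the enveloping layer markers summed to 2247 to 3923 CPM in replicate 2, below all embryos of replicate 1 with 5725 to 10808 CPM. The yolk syncytial layer markers largely overlapped, with sums of 282 to 533 CPM in replicate 2 and 348 to 544 CPM in replicate 1. The oocyte markers summed to 3146 to 6538 CPM in replicate 2 and 2646 to 4459 CPM in replicate 1, and the 6 germ plasm markers to 892 to 1502 CPM in replicate 2 and 554 to 1093 CPM in replicate 1. The part of these markers was not tested.

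**Figure D4:**
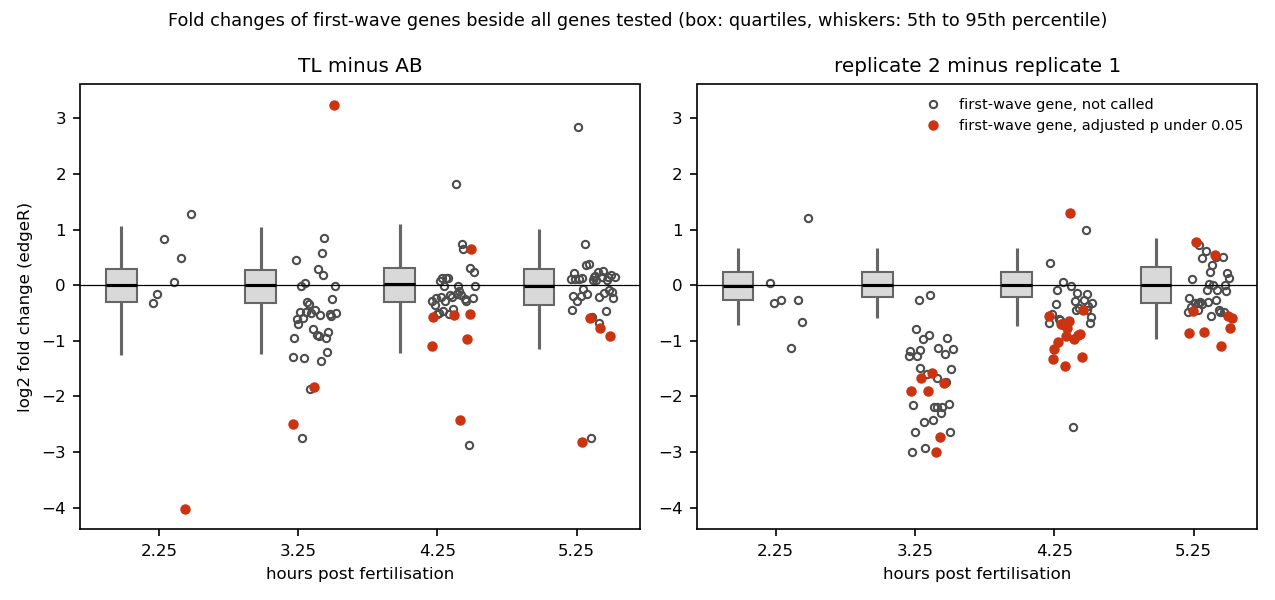
The log2 fold changes (edgeR) of the tested members, TL over AB in the left panel and replicate 2 over replicate 1 in the right panel, by hours post fertilisation, with filled points for an adjusted p under 0.05 and a box of quartiles with whiskers from the 5th to the 95th percentile for all genes tested. In the replicate panel all 37 points of 3.25 hpf lie below 0, around a median of -1.68, whereas the strain panel has 7 above and 30 below.

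The strains were compared at each stage by the same test, with TL over AB as the fold change and 6 embryos each. A gene could enter the set through 1 strain, and the embryos of 3.25 hpf are those that chose the members. Most of the members called were lower in TL, and without the replicate as a block the share called was not above that of all genes at any stage. At 2.25 hpf 1 of 7 tested was called, lower in TL, at a background of 17.8%, and likewise 1 with the replicate as a block, at 22.4%. At 3.25 hpf 3 of 37 were called, 1 higher and 2 lower in TL, at a background of 15.7%, or 7 of 37 (1 higher, 6 lower) with the replicate as a block, at a background of 18.2% in that fit. At 4.25 hpf 7 of 38 were called, 1 higher and 6 lower, at a background of 20.4%, or 11 (2 higher, 9 lower) with the block, which is 28.9% of the members against 24.1% of all genes. At 5.25 hpf 4 of 39 were called, all lower in TL, at a background of 10.7%, or 6 (2 higher, 4 lower) with the block, at 15.7%. The members called with the block and not without it were wnt11f2, klf2b, zgc:100951 and ENSDARG00000114187 (lower in TL) at 3.25 hpf, noto (higher) and ftr82, zgc:195170 and ENSDARG00000102371 (lower) at 4.25 hpf, and apela and si:dkeyp-33c10.5 (higher) at 5.25 hpf.

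In direction, 7 of the 37 tested members were higher and 30 lower in TL at 3.25 hpf (median log2 fold change -0.53, against -0.00 over all genes tested). At 4.25 hpf 10 were higher and 28 lower (median -0.22 against 0.02), and at 5.25 hpf 20 were higher and 19 lower (median 0.09 against -0.02). At 3.25 hpf the summed enveloping layer markers were 8.36 to 77.3 CPM in TL and 31.3 to 104 CPM in AB, and ENSDARG00000080337 took 23.1% to 27.9% of counts in TL and 12.1% to 59.2% in AB. Their part was not tested.

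A single member, ENSDARG00000115096, was called lower in TL at 3 stages without the block. It had a lowest, median and highest level of 0.547, 1.95 and 4.29 CPM in TL, against 6.71, 12.4 and 24 CPM in AB at 3.25 hpf (log2 fold change -2.49, SE 0.46, edgeR adjusted p 0.00139). At 4.25 hpf it had 14.7, 17.8 and 24.4 CPM in TL, against 74.5, 87.8 and 173 CPM in AB (a log2 fold change of -2.42 with an SE of 0.22, edgeR adjusted p 1.4e-06). At 5.25 hpf it had 13.7, 29.4 and 45.8 CPM in TL, against 107, 209 and 359 CPM in AB (a log2 fold change of -2.82 with an SE of 0.32, edgeR adjusted p 3.9e-05). The strains did not overlap at any of these stages, and the gene was below AB in both replicates. Its median went up from stage to stage in both strains.

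The nucleotidyltransferase gene tent5ba was lower in TL at the last 2 stages. It had 101, 203 and 242 CPM in TL, against 319, 372 and 452 CPM in AB at 4.25 hpf (log2 fold change -0.98, SE 0.18, edgeR adjusted p 0.00114). The levels at 5.25 hpf were 473, 518 and 618 CPM in TL, against 680, 803 and 921 CPM in AB (a log2 fold change of -0.60 with an SE of 0.13, edgeR adjusted p 0.00926), again without overlap. For klf2b the 5.25 hpf levels were 62.0, 82.9 and 103 CPM in TL, against 101, 128 and 219 CPM in AB (a log2 fold change of -0.77 with an SE of 0.20, edgeR adjusted p 0.0229), and it was also called lower at 4.25 hpf (log2 fold change -0.56, SE 0.17, edgeR adjusted p 0.0242).

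The SoxB1 genes were called lower in TL at 4.25 hpf and at no other stage. SOX3 had 107, 142 and 177 CPM in TL, against 143, 209 and 259 CPM in AB (a log2 fold change of -0.54 with an SE of 0.15, edgeR adjusted p 0.0159). sox19a had 57.4, 97.4 and 107 CPM in TL, against 101, 130 and 156 CPM in AB (a log2 fold change of -0.51 with an SE of 0.16, edgeR adjusted p 0.0335). Both pairs of ranges overlapped. At 5.25 hpf sox19a had 203 to 300 CPM in TL and 207 to 312 CPM in AB. Whether the strain difference changed between these stages was not tested.

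Of the signals, lft2 was the single one called between strains without the block, which added wnt11f2 at 3.25 hpf (log2 fold change -1.49, SE 0.34, edgeR adjusted p 0.00728 with the block and 0.0637 without it). The levels of lft2 were 33.9, 49.3 and 69.4 CPM in TL, against 27.7, 32.9 and 37.6 CPM in AB at 4.25 hpf (log2 fold change 0.66, SE 0.17, edgeR adjusted p 0.0122). At 5.25 hpf the ranges were 49.3 to 86.0 CPM in TL and 31.8 to 99.1 CPM in AB. For apela the 5.25 hpf levels were 185, 244 and 356 CPM in TL and 89.3, 141 and 231 CPM in AB, which did not pass without the block (log2 fold change 0.73, SE 0.24, edgeR adjusted p 0.0622) and passed with it (edgeR adjusted p 0.0289).

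The calls at 3.25 hpf also took in GADD45G, with 0.313, 1.6 and 3.72 CPM in TL, against 1.25, 5.03 and 14.7 CPM in AB (a log2 fold change of -1.82 with an SE of 0.58, edgeR adjusted p 0.0431). At 2.25 hpf the one call was zgc:100951, with 1.11, 1.55 and 3.24 CPM in TL, against 1.18, 23.6 and 66.1 CPM in AB (a log2 fold change of -4.02 with an SE of 0.75, edgeR adjusted p 0.00155). The AB values were scattered: embryos 2 and 5 had 65.8 and 66.1 CPM, embryos 1 and 3 had 12.9 and 34.2 CPM, and embryos 4 and 6 had 1.18 and 3.92 CPM. At 3.25 hpf zgc:100951 had 30.6, 135 and 279 CPM in TL and 108, 305 and 638 CPM in AB, and the difference did not pass there (log2 fold change -1.20, SE 0.51, edgeR adjusted p 0.125) or later, but with the block it passed at 3.25 hpf (edgeR adjusted p 0.00275). Over the alternative settings, the call of ENSDARG00000115096 held in 9 of 10 at 3.25 hpf, 9 of 9 at 4.25 hpf and 8 of 9 at 5.25 hpf, and that of tent5ba at 4.25 hpf in 8 of 9. Each lost call was under counts summed per replicate, which alone takes the replicate and not the embryo as the unit. There the edgeR adjusted p of ENSDARG00000115096 was 0.0562 at 3.25 hpf, 0.00819 at 4.25 hpf and 0.0517 at 5.25 hpf. That of tent5ba at 4.25 hpf was 0.0508. Less settled were GADD45G (7 of 10) and si:dkeyp-33c10.5 (5 of 8) at 3.25 hpf, lft2 (6 of 9) and ENSDARG00000114187 (5 of 9) at 4.25 hpf, and klf2b (5 of 9) and si:dkey-122c11.8 (6 of 9) at 5.25 hpf.

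**Figure D5:**
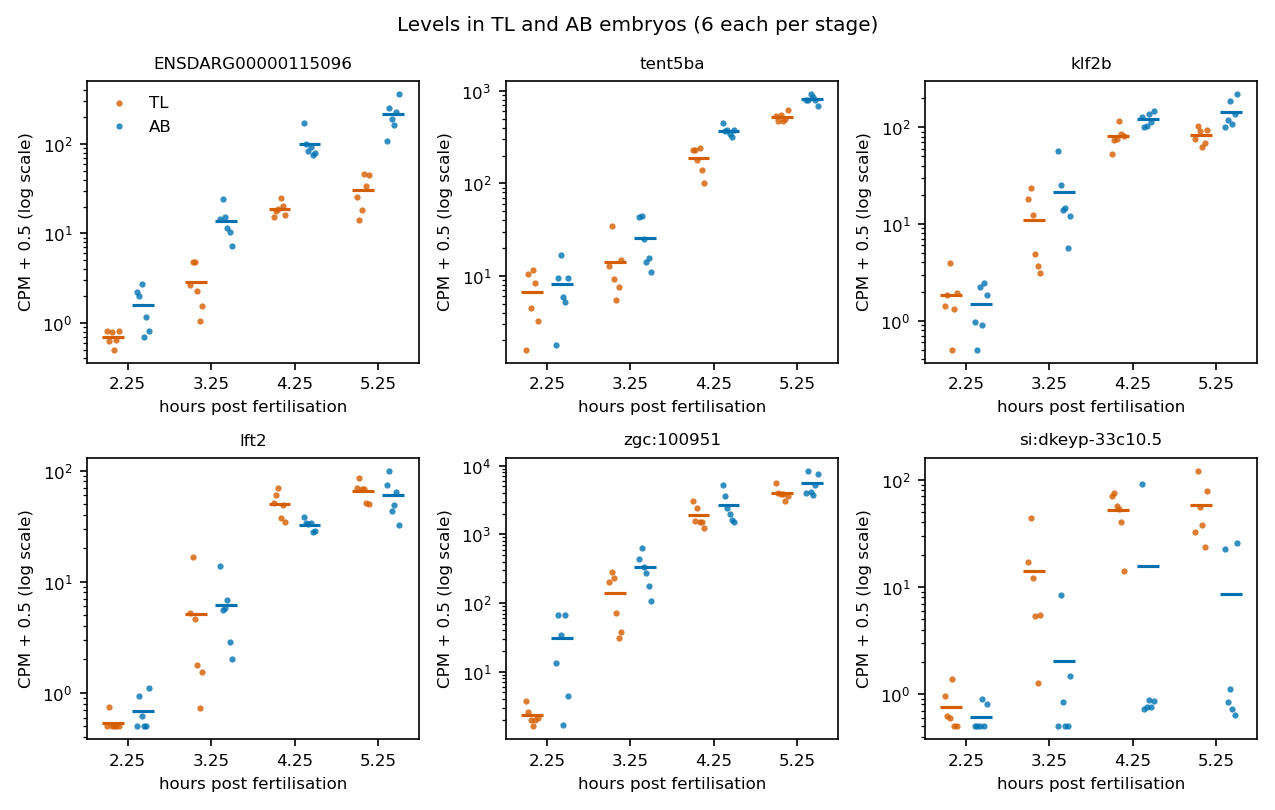
Level of selected members in each TL and AB embryo, as CPM plus 0.5 on a log axis, by hours post fertilisation, with TL left of AB and a bar at the mean of 6 embryos. The TL points of ENSDARG00000115096 lie below all AB points from 3.25 hpf on, and those of tent5ba at 4.25 and 5.25 hpf.

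Some members were present or near absent from embryo to embryo within a strain, a pattern picked out after the values were seen. In TL, si:dkeyp-33c10.5 (ENSDARG00000098884) was found in every embryo from 3.25 hpf on, with 0.781 to 43.0 CPM at 3.25 hpf, 13.7 to 74.5 CPM at 4.25 hpf and 23.1 to 121 CPM at 5.25 hpf. In AB it had 7.95 CPM in 1 embryo and at most 0.985 CPM in the other 5 at 3.25 hpf. At 4.25 hpf 1 AB embryo had 90.2 CPM and the other 5 had 0.230 to 0.372 CPM, and at 5.25 hpf 2 AB embryos had 25 and 22.1 CPM and the other 4 had 0.134 to 0.609 CPM. Its strain difference passed at 3.25 hpf (log2 fold change 3.25, SE 1.07, edgeR adjusted p 0.0492), but not at 4.25 hpf (log2 fold change 1.81, SE 1.11, edgeR adjusted p 0.277) or 5.25 hpf (log2 fold change 2.84, SE 0.89, edgeR adjusted p 0.0519), where it passed with the block (edgeR adjusted p 0.0393).

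For zgc:195170 both strains split. At 4.25 hpf TL embryos 4 to 6 had 42.6, 14.8 and 16.4 CPM and TL embryos 1 to 3 had 1.56, 1.20 and 1.20 CPM, while 4 AB embryos had 25.1 to 220 CPM and the other 2 had 1.30 and 1.84 CPM. At 5.25 hpf 2 TL embryos had 0.544 and 1.42 CPM and the other 4 had 12.2 to 24.1 CPM, and 2 AB embryos had 0.294 and 0.937 CPM and the other 4 had 33.7 to 196 CPM. The strain difference passed at neither stage without the block (edgeR adjusted p 0.0613 and 0.103), and at 4.25 hpf with it (edgeR adjusted p 0.0428).

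High levels of her2 and agt were seen in AB embryos and in no TL embryo. At 4.25 hpf her2 had 28.9 and 30.4 CPM in 2 AB embryos and at most 3.72 CPM in the other 10, and at 5.25 hpf 16.9, 17.7 and 18.9 CPM in 3 AB embryos and at most 1.94 CPM in the other 9. In the same way agt had 12.4 and 22.7 CPM in 2 AB embryos at 4.25 hpf and at most 2.58 CPM elsewhere, and 22.3 CPM in 1 AB embryo at 5.25 hpf and at most 3.27 CPM elsewhere. Neither gene passed the count filter of the strain comparison at any of the 3 later stages.

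The reverse, a gene missing from few embryos, was seen for si:dkey-122c11.8 (ENSDARG00000115506) and ENSDARG00000114187. At 4.25 hpf si:dkey-122c11.8 had 21.9 to 133 CPM in TL, and in AB 4.2 and 1.32 CPM in 2 embryos and 79.1 to 199 CPM in the other 4. At 5.25 hpf its levels were 87.9, 102 and 157 CPM in TL, against 91.7, 249 and 299 CPM in AB (a log2 fold change of -0.92 with an SE of 0.25, edgeR adjusted p 0.0247). At 5.25 hpf ENSDARG00000114187 had 7.58 CPM in 1 TL embryo and 77.3 to 241 CPM in the other 5, and 1.91 CPM in 1 AB embryo and 153 to 332 CPM in the other 5. At 4.25 hpf it was called lower in TL, with 7.10, 51.2 and 78.6 CPM in TL, against 67.1, 98.4 and 149 CPM in AB (a log2 fold change of -1.09 with an SE of 0.36, edgeR adjusted p 0.0445).

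Whether the step from 2.25 to 3.25 hpf differed between strains was tested as an interaction over 24 embryos. edgeR's quasi-likelihood test called 0 of 37 members and 0 of 13110 genes in all, a background of 0%, and DESeq2 called 0 members. At an unadjusted p under 0.05 there were 3 members and 253 genes in all. The 3, named after their values were seen, were si:ch73-141c7.1 (log2 fold difference -3.07, SE 0.96), zgc:100951 (2.84, SE 0.98) and apela (4.18, SE 1.57), each with an edgeR adjusted p of 1.00. For zgc:100951 the ratio of the rule was 60.8 in TL and 10.54 in AB, and its mean at 2.25 hpf was 1.83 CPM in TL and 30.7 CPM in AB. The ratio of 2.5 was reached by 36 members in TL (median 4.69) and 39 in AB (median 6.68).

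Other early regulators and signals were taken from 7 role lists of 150 names, of which 109 matched a single ID by symbol and 9 were members. The members were blf and klf2b among the Krüppel-like and zinc finger genes, SOX3 among the homeobox, Fox, T-box and basic helix-loop-helix genes and other factors, lft2 and admp in the Nodal and TGF-beta list, IER5 in the FGF and immediate early list, and wnt11f2, apela and aplnrb in the Wnt, apelin and chemokine list. The ventral and dorsal regulators and the stress and growth arrest list held none. However, the rule left out 2 genes of the ventral and dorsal list by name, and some of other lists, so these could not be members. Names were matched by the whole symbol, ignoring case, and only where a single ID carried it. The members GADD45B, BMP2 and ACKR3 therefore could not match the listed gadd45ba, bmp2b or ackr3a. The count of members on a list thus depends on the naming and on the IDs left out. Of the listed genes tested between strains, 4 were called higher and 5 lower in TL of 41 at 2.25 hpf, 1 higher and 2 lower of 58 at 3.25 hpf, 8 higher and 5 lower of 81 at 4.25 hpf and 5 higher and 3 lower of 90 at 5.25 hpf. Over all genes tested, the share called was 17.8%, 15.7%, 20.4% and 10.7% at these stages. The listed genes' median log2 fold change was 0.14, -0.23, -0.02 and 0.07 in the same order.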

How the data were processed

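Single TL and AB embryos (48 in all, 6 per strain and stage) were profiled by CEL-seq2. The authors deposited raw counts per gene ID, one table of 12 embryos per stage. Per the submitters' processing notes, bcl2fastq 2.19.0.316, STAR 2.7.1a and edgeR 3.26.8 were used. The counting program, build, gene annotation, strand setting and handling of molecular identifiers are not given in the sources used here, so no coordinates are printed and genes overlapping on either strand could have shared reads. If the counts hold several reads of one molecule, precision is below what the counts imply.

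CPM was computed from the deposited counts without ENSDARG00000080337, which stayed in the fits. The table of names gave a symbol to 29201 of 32520 IDs. Comparisons used edgeR 4.0.16 (limma 3.58.1, R 4.3.3), with quasi-likelihood tests on all 12 embryos of a stage after filterByExpr and TMM. A gene was called at a p under 0.05 after Benjamini-Hochberg adjustment over all genes tested. DESeq2 1.42.0, other scalings, no filter, one fit of 48 embryos, sums per replicate, single strains and left-out replicates were alternatives. Members and lists were chosen with earlier results of these data known.

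Named were the 8 members with the highest ratio, the 8 with the highest mean at 3.25 hpf, listed members and those beside the threshold. In each strain comparison up to 3 called members per direction were named, with at least 5 counts on average and the same sign in both replicates. In each replicate comparison up to 2 called members per direction were named, with the same sign in both strains. Other members were named for their role or pattern after their values were seen.

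Replicate numbers were treated as pairing the strains in the fits with the replicate as a block, and not in the main strain comparisons. The reason for the pairing was that, per the labels, the sequencing runs of each replicate were its own. The difference of replicate 2 from replicate 1 in TL correlated with that in AB over genes, which are not independent, with r = 0.328 at 2.25 hpf, 0.247 at 3.25 hpf, 0.183 at 4.25 hpf and 0.589 at 5.25 hpf.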

Additional observations from a re-analysis of the deposited data

Results flagged for a closer look

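Member levels were screened in 122 groups of 6 embryos of the same strain and stage, which are only a part of all such groups. How these 122 were chosen is not given. In 26 of them a single embryo was set apart from the rest by a gap that is large for the range of the group (Dixon's criterion). About 1 group in 20 meets it when the values are independent and normal. That rate does not apply here, because the members share embryos and those of 3.25 hpf chose the members. How the 26 fall over stages and embryos describes the screened groups alone. TL embryo 2 at 3.25 hpf accounted for 17 of the 26. Its levels in CPM, each followed by the highest of the other 5 TL embryos, were 16.3 and 4.78 for lft2, 12 and 3.64 for admp, 18.6 and 8.06 for BMP2, and 10.3 and 2.64 for ACKR3. They were 22 and 8.92 for GADD45B, 29.3 and 6.91 for slc25a55a, 7.58 and 0.977 for asb11, 9.58 and 1.76 for ftr82, 9.86 and 2.44 for akap12b, 34.4 and 14.3 for tent5ba, and 12 and 4.65 for NET1. For members without a known role they were 12 and 3.52 for ENSDARG00000114187, 10.4 and 3.39 for ENSDARG00000102371, 7.72 and 1.63 for si:dkey-122c11.8, 11.1 and 2.34 for ENSDARG00000088927, 18.4 and 8.17 for si:ch211-270h14.1, and 114 and 43.5 for ENSDARG00000109703.

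AB embryo 2 at 3.25 hpf was set apart for 4 members, with 7.95 CPM of si:dkeyp-33c10.5 (others up to 0.985), 12 CPM of ENSDARG00000088927 (up to 4.96), 14.7 CPM of admp (up to 4.61) and 14.3 CPM of BMP2 (up to 5.43). AB embryo 4 of that stage had 16.2 CPM of zgc:195170 (up to 5.23) and 42.0 CPM of agt (up to 0.985). AB embryo 1 of that stage had 2.95 CPM of si:ch211-250c4.4 (up to 0.420) and 29.3 CPM of her2 (up to 2.23). At 4.25 hpf, AB embryo 1 had 173 CPM of ENSDARG00000115096, against at most 98.9 CPM in the other AB embryos. Uneven groups were not confined to those flagged. At 4.25 hpf, AB embryo 1 also had 90.2 CPM of si:dkeyp-33c10.5, against 0.230 to 0.372 CPM in the other AB embryos, and this group was not flagged.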

How the results depend on the processing

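For TL against AB, the members called were 1, 3, 7 and 4 from 2.25 to 5.25 hpf. Under edgeR, one fit of all 48 embryos gave 4, 6, 3 and 2, counts summed per replicate moved those after 2.25 hpf to 0, 2 and 1, with 5 members at an unadjusted p under 0.05 at 3.25 hpf, and no count filter moved 2.25 and 5.25 hpf to 4 and 8. The replicate block gave 7 at 3.25 hpf and 11 at 4.25 hpf, and 1 and 6 at 2.25 and 5.25 hpf. Without one replicate or the other the counts ran from 0 to 2, 1 to 3, 7 to 11 and 1 to 2. For replicate 2 against replicate 1, the counts 0, 7, 16 and 9 became 1, 30 and 25 at 2.25, 3.25 and 4.25 hpf with no count filter, 0, 6 and 0 after 2.25 hpf in AB alone (with 18 and 8 at an unadjusted p under 0.05 at 3.25 and 5.25 hpf), 1 at 5.25 hpf in TL alone, and 23 and 14 at 3.25 and 5.25 hpf with DESeq2. Without TL embryo 2 and AB embryo 2, a choice made after seeing the data, it was 2 at 3.25 hpf. With no count filter 42 members were tested at each stage, against 7, 37, 38 and 39 in the main fits. Apart from the backgrounds stated earlier, the share of all genes called under these settings is not given. These changes in count are therefore not results about the members. Other scalings left these counts within 1.5 times, and the interaction stayed at 0 under its 7 alternatives, with 1 to 6 members at an unadjusted p under 0.05. The rule itself gave 64 genes without replicate 2 (36 of them members) and 32 without replicate 1 (21 members), and 28 with CPM over all IDs. It gave 48 genes in TL alone (33 members) and 56 in AB alone (36 members). With the median in place of the mean, a setting that was not planned, it gave 37 genes, of which 28 were members. Of 155 recomputed values of named genes, 119 kept direction and call, 36 kept direction and lost the call, and 0 reversed. These genes were named for a call in the main fit with the same sign in both replicates or both strains. The absence of reversals is therefore not independent of how they were named. The causes of the changes across settings were not tested. At 2.25 hpf, where the rule chose members for a low level, 7 passed the filter.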

Other observations

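The listed early regulators and signals, of which 9 of 109 were members, differed between biological replicates in the same direction as the set at the 3 later stages. Of those tested, 3 were called higher and 0 lower in replicate 2 of 41 at 2.25 hpf by edgeR's quasi-likelihood test, 0 higher and 6 lower of 58 at 3.25 hpf, 1 higher and 21 lower of 81 at 4.25 hpf, and 4 higher and 30 lower of 90 at 5.25 hpf. Over all genes tested, the share called was 8.08%, 1.07%, 6.59% and 13.4% at these stages. The median log2 fold change was 0.25, -0.38, -0.36 and -0.37 in the same order. At 5.25 hpf the members' own median was -0.27. The listed genes include the 9 members, of which blf, klf2b and SOX3 were called lower in replicate 2 at 3.25 hpf. The list and the set are therefore not independent.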
